A study of Mus musculus with 8 samples.

Results

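The EGF receptor family, its ligands and the receptor inhibitor Errfi1 were followed by RNA sequencing in sorted cells, 4 libraries of 4T1-Sca1+ and 4 of 4T1-Sca1-. 4T1 is a mouse mammary carcinoma line, and SCA1 is the surface protein encoded by Ly6a by which the cells were separated on magnetic columns. Both groups carried the same CD45- gate and differed, per the labels, only in the marker: the source label names the parental line, whereas the protocol speaks of stained tumor. The paper on these data states that both profiled populations were sorted from parental 4T1 cells. The labels name no treatment, and both groups come from 1 cell line. The 10 genes (Egfr, Erbb2, Erbb3, Areg, Ereg, Hbegf, Tgfa, Btc, Epgn and Errfi1) were matched by symbol to the Ensembl IDs of the count table, and all 10 were among its 16341 genes.

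The receptors of this family are tyrosine kinases that pair with each other when a ligand binds. EGFR binds EGF-like ligands, ERBB2 has no known ligand of its own and acts as the preferred partner, and ERBB3 binds neuregulins and signals mainly through PI3K. The ligands are made as membrane-anchored precursors that metalloproteases cut free, and the active receptors signal through adaptors to the RAS-ERK cascade, which induces feedback inhibitors such as the DUSP and Sprouty proteins. In the mammary gland amphiregulin, the product of Areg, is known for its part in duct outgrowth.

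In 4T1-Sca1+ cells Egfr and the ligand gene Hbegf were lower, to 0.697 and 0.691 of the 4T1-Sca1- level, while the ligand genes Tgfa and Areg were higher, by 1.436-fold and 1.316-fold. Errfi1 was slightly lower. Erbb2, Erbb3, Btc and Epgn did not pass the test, and Ereg was at most at 1 count. The summed level of the 6 ligand genes, per length, overlapped between the groups, by a margin that depended on the length used. The shares of Hbegf, Areg and Tgfa in that sum, which depend on each other, did not overlap.

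Depth and the sort were examined first. The 4T1-Sca1+ libraries held 15041995 to 16968215 counts each, and the 4T1-Sca1- libraries 13561804 to 16142836. Ly6a had a normalized count (the count divided by the size factor of its library) of 166.7 ± 20.2 in the positive fraction against 1.79 ± 1.73 in the negative one (SD, n = 4), and the groups did not overlap. The luminal keratin genes Krt8 and Krt18 and the epithelial genes Epcam and Cdh1 were detected in every library. Their levels were not all alike: Cdh1 had 3264 ± 154 normalized counts in 4T1-Sca1+ against 5301 ± 92.6 in 4T1-Sca1- libraries (SD, n = 4). Krt8 (13673 against 11093) and Krt18 (16514 against 12802) were higher in 4T1-Sca1+ libraries, and Epcam overlapped between the groups. Of the basal markers, Krt14 was detected too, at 549.8 ± 20.9 and 649 ± 38.1 normalized counts (SD, n = 4), while Krt5 and Acta2 were at 3 counts or fewer in each library. No pair of libraries agreed within sampling noise: the chi-square per degree of freedom between libraries of a group was 7.02 to 10.1 for 4T1-Sca1+ replicate 3 against the other 3, and 2.19 to 4.00 among those. It was 1.92 to 5.68 among 4T1-Sca1- libraries. Each value of the genes below is therefore also given, where it changed a call, without single libraries. In bulk RNA fewer cells of a kind and less RNA per cell cannot be told apart.

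Upstream sequences are shown for Areg, Tgfa and Egfr, which are members that differed in level, and for the second annotated start of Errfi1, since only Areg and that start of Errfi1 held a cAMP response element (TGACGTCA). Each is the 250 bases before the RefSeq start on GRCm38.p6, plus strand, 5′ to 3′, and capitals mark the cAMP response element and the TATA box (TATAAA). The regions are chr5:91139349-91139598 for Areg, chr4:150854820-150855069 for Errfi1, chr6:86194972-86195221 for Tgfa and chr11:16751953-16752202 for Egfr. The Errfi1 region lies within the annotated span of that gene.
Areg: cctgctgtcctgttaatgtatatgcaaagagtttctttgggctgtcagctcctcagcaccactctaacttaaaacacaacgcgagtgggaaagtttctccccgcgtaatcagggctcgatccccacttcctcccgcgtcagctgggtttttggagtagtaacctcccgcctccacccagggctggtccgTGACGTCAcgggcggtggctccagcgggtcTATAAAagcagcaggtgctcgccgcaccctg
Errfi1: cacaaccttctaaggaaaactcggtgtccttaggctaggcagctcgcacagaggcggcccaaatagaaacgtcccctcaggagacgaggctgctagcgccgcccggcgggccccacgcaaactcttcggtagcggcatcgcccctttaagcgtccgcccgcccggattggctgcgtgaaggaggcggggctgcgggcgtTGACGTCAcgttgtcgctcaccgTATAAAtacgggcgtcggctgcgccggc
Tgfa: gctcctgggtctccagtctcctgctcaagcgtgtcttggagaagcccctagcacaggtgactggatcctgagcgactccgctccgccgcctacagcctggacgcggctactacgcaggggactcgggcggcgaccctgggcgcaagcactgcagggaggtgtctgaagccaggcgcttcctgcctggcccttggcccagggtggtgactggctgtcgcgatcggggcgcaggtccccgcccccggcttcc
Egfr: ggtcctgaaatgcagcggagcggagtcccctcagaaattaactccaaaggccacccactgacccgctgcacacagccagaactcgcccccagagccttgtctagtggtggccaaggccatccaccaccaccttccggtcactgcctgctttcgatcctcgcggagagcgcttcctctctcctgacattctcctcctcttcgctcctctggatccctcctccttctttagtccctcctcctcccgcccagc
Of the 10 genes, 7 matched a RefSeq window, and Errfi1 had 2, which gave 8 windows. Erbb3, Ereg and Hbegf had none. In the Areg sequence the cAMP response element began at position -61 and the TATA box at -31, counted back from the start, and in the Errfi1 sequence they began at -51 and -28. The element was held by 1.55% of 32851 RefSeq windows of this length and the TATA box by 12.4%. The TATA box also occurred at -86 of Epgn. A GC box (GGGCGG), held by 32.7% of windows, occurred at -126 and -15 of Tgfa, at -9 of Egfr, at -52 of Areg and 3 times in the printed Errfi1 window, first at -152, with the other 2 matches overlapping each other. A TEAD site (GGAATG, in 12.6% of windows) lay at -88 of Erbb2 and at -65 of the other Errfi1 start. An AP-1 site (TGANTCA, in 6.75% of windows) was in none of the 8 windows. Both strands were searched. These are matches of letters within the windows, and nothing was measured on binding there.

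Among the receptors, Egfr, which encodes the receptor that binds the EGF-like ligands, was lower in 4T1-Sca1+ cells. Egfr (ENSMUSG00000020122, chromosome 11, 16752203 to 16918158, plus strand) had normalized counts of 105, 99.6, 109 and 87.5 in 4T1-Sca1+ replicates 1 to 4 and of 145, 141, 154 and 140.4 in 4T1-Sca1- replicates 1 to 4. The groups did not overlap, and the means were 100.2 ± 9.27 and 145 ± 6.17 (SD, n = 4). By the quasi-likelihood test of edgeR, adjusted over 11717 genes, the log2 fold change of -0.52 ± 0.10 (SE) had an adjusted p of 0.000217. This change was larger in size than that of 80.2% of tested genes, although Egfr was a lowly expressed gene whose level per length exceeded only 9.67% of them. The call rests on 425 raw counts against 550.

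Erbb2 and Erbb3 did not pass the threshold. Erbb2 (ENSMUSG00000062312, chromosome 11, 98412470 to 98437716, plus strand), which encodes the ligandless partner receptor, had normalized counts of 1435, 1421, 1595 and 1469 in 4T1-Sca1+ replicates 1 to 4 and of 1361, 1454, 1330.2 and 1399 in 4T1-Sca1- replicates 1 to 4. The groups overlapped, and the log2 fold change was 0.11 ± 0.05 (SE, adjusted p 0.0709 by edgeR). Its direction depended on the correction for GC content: with GC-corrected offsets it was -0.15 with an adjusted p of 0.00157. Erbb2 was called higher with library totals alone, with upper-quartile scaling and with a filter of 10 counts in every library. Its exons share 9 bases with the counted gene Mien1 on the other strand. Erbb3 (ENSMUSG00000018166, chromosome 10, 128567523 to 128589652, minus strand), which encodes the neuregulin receptor with a weak kinase, had normalized counts of 203, 248, 279 and 234 in 4T1-Sca1+ replicates 1 to 4 and of 216, 211.5, 226 and 193 in 4T1-Sca1- replicates 1 to 4. These groups overlapped too, with a log2 fold change of 0.20 ± 0.09 (SE, adjusted p 0.082 by edgeR). Without 4T1-Sca1+ replicate 1, the lowest library of its group, Erbb3 was called higher at a log2 fold change of 0.27. Erbb4, the remaining receptor of the family, had 3 counts or fewer in every library.

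**Figure D1:**
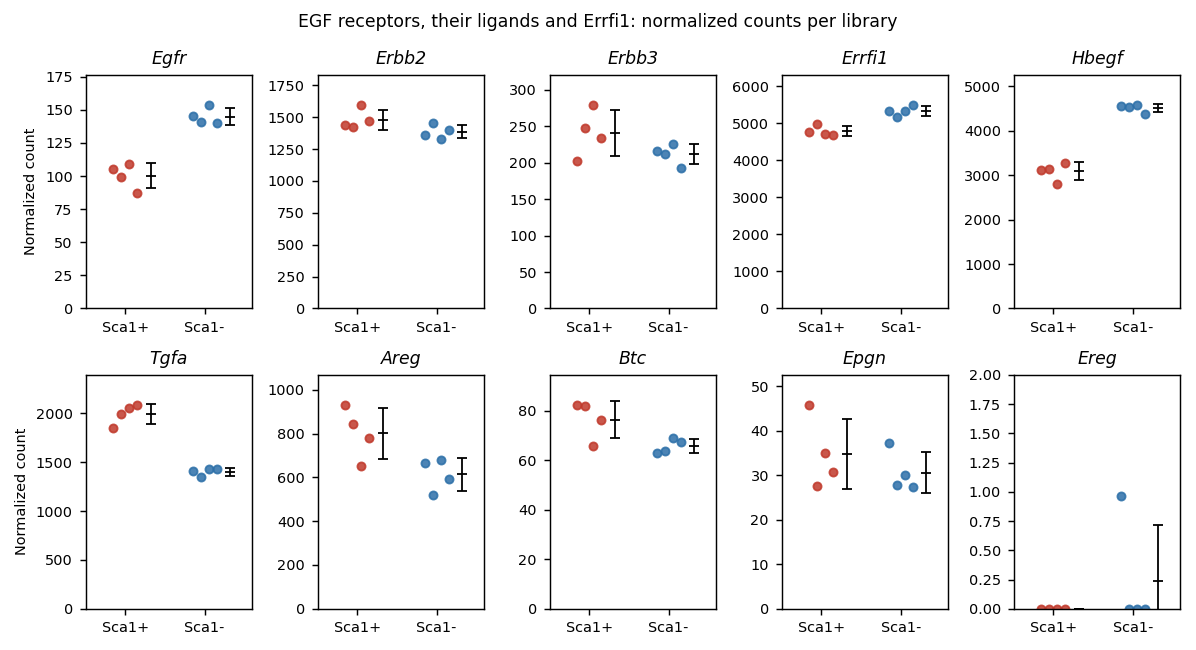
Normalized counts of the 10 genes in each library (y axis from 0, 1 scale per panel), red points for 4T1-Sca1+ and blue points for 4T1-Sca1- replicates 1 to 4 from left to right, black bars for the mean and SD of 4 libraries. Egfr, Errfi1 and Hbegf were lower and Tgfa was higher in 4T1-Sca1+ cells with no overlap of the groups, the Areg groups overlapped, and Ereg had a single count in 1 library.

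Hbegf was the ligand gene with the most counts, and it was lower in 4T1-Sca1+ cells. It encodes heparin-binding EGF-like growth factor, which binds EGFR and ERBB4. Hbegf (ENSMUSG00000024486, chromosome 18, 36504927 to 36515805, minus strand) had normalized counts of 3121, 3143, 2796 and 3275 in 4T1-Sca1+ replicates 1 to 4 and of 4547, 4531, 4576 and 4373 in 4T1-Sca1- replicates 1 to 4. Every 4T1-Sca1+ library lay below every 4T1-Sca1- library. The means were 3084 ± 204 and 4507 ± 91.2 (SD, n = 4), with a log2 fold change of -0.53 ± 0.05 (SE, adjusted p 6.51e-08 by edgeR). Over the other fits, the log2 fold change of Hbegf ran from -0.62 to -0.49.

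Tgfa moved the other way. It encodes transforming growth factor alpha, an EGFR ligand. Tgfa (ENSMUSG00000029999, chromosome 6, 86195223 to 86275719, plus strand) had normalized counts of 1845, 1992, 2058 and 2082 in 4T1-Sca1+ replicates 1 to 4 and of 1407, 1344, 1429 and 1427 in 4T1-Sca1- replicates 1 to 4. The 4T1-Sca1+ libraries were all above the 4T1-Sca1- libraries. Means were 1994 ± 106 and 1402 ± 39.8 (SD, n = 4), the log2 fold change was 0.52 ± 0.05 (SE) and the adjusted p was 7.47e-08 by edgeR. Its exons share 118 bases with the antisense model Gm43917, which is not in the count table.

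Areg was also higher, with more spread between libraries. Areg (ENSMUSG00000029378, chromosome 5, 91139599 to 91148432, plus strand) had normalized counts of 929.5, 842, 653 and 779.8 in 4T1-Sca1+ replicates 1 to 4 and of 668, 518, 681 and 592 in 4T1-Sca1- replicates 1 to 4. The groups overlapped: 4T1-Sca1+ replicate 3 lay below 4T1-Sca1- replicates 1 and 3. The log2 fold change of 0.40 ± 0.10 (SE) passed the test (adjusted p 0.00178 by edgeR), and it ran from 0.31 to 0.48 when single libraries were left out.

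Areg lies in a run of ligand genes on chromosome 5, from 91027464 to 91402994 on GRCm38, a span of 375.5 kb. The order along the chromosome is Epgn, Ereg, Areg and Btc, and these 4 are the only protein-coding genes among the 7 genes annotated there. Of them, Areg alone passed the test. Epgn (ENSMUSG00000035020, chromosome 5, 91027464 to 91035215, plus strand), which encodes epigen, had normalized counts of 45.7, 27.6, 34.9 and 30.6 in 4T1-Sca1+ replicates 1 to 4 and of 37.25, 27.7, 30.1 and 27.4 in 4T1-Sca1- replicates 1 to 4. The groups overlapped, with a log2 fold change of 0.19 ± 0.20 (SE, adjusted p 0.424 by edgeR). Btc (ENSMUSG00000082361, chromosome 5, 91357261 to 91402994, minus strand), which encodes betacellulin, had normalized counts of 82.3, 81.85, 65.8 and 76.1 in 4T1-Sca1+ replicates 1 to 4 and of 63.0, 63.7, 69.0 and 67.35 in 4T1-Sca1- replicates 1 to 4. Only 4T1-Sca1+ replicate 3 fell into the range of the other group, and the log2 fold change of 0.24 ± 0.12 (SE) had an adjusted p of 0.108 by edgeR. With GC-corrected offsets Btc was called higher, at 0.34.

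Ereg, the epiregulin gene beside Areg, was at the floor. Ereg (ENSMUSG00000029377, chromosome 5, 91074622 to 91093646, plus strand) had 0 counts in the 4T1-Sca1+ libraries and 1 count over the 4T1-Sca1- libraries, in replicate 1. A floor of 3 counts per library stands for 0.174 to 0.224 CPM (counts scaled to the library total after TMM), and at this depth a difference was not detectable. It was left out of the edgeR test. No other test is given, because with a single count every split of the libraries gives a difference of the same size.

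**Figure D2:**
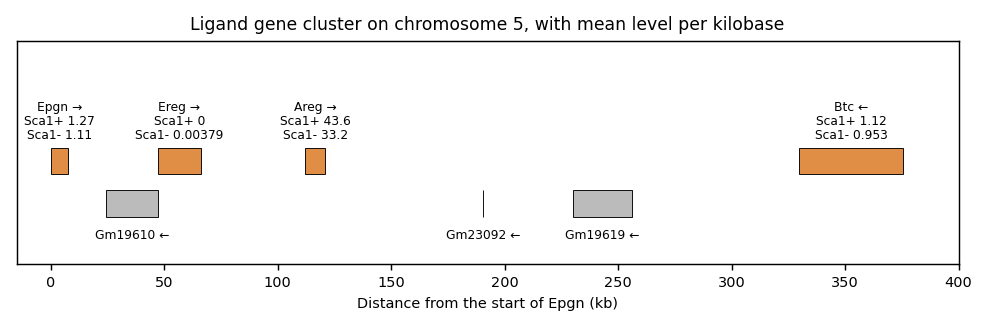
Annotated genes of the ligand cluster on chromosome 5, drawn to scale by distance from the start of Epgn (kb, x axis); orange boxes are the 4 ligand genes, grey boxes the other annotated genes, arrows the direction of transcription, and the text gives the mean level per kilobase of exon in each group. Areg stood at 43.6 for 4T1-Sca1+ against 33.2 for 4T1-Sca1-, while Epgn and Btc stood near 1 and Ereg near 0.

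Levels of different genes were compared as CPM after TMM scaling per kilobase of merged exons. Among the ligands of 4T1-Sca1+ cells, Areg (43.6 ± 6.42) and Hbegf (42.2 ± 2.88) overlapped (SD, n = 4). Tgfa followed at 20.3 ± 1.05, and Epgn (1.27 ± 0.291) and Btc (1.12 ± 0.115) overlapped with each other. In 4T1-Sca1- cells Hbegf (61.1 ± 1.25) stood above Areg (33.2 ± 4.11) and Tgfa (14.1 ± 0.43) in every library, with Epgn (1.11 ± 0.167) and Btc (0.953 ± 0.0434) again overlapping. The order of the 2 leading ligands in 4T1-Sca1+ cells depended on the length used: with the longest transcript the level of Hbegf was 70.5 and that of Areg stayed at 43.6.

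As a share of the summed level of the 6 ligands in a library, Hbegf made up 38.9% ± 1.41 of the 4T1-Sca1+ sum against 55.4% ± 2.20 of the 4T1-Sca1- sum (SD, n = 4). Its share ran from 37.1% to 40.5% in the first group and from 53.8% to 58.6% in the other. The share of Areg was 40.0% ± 3.23 against 29.9% ± 2.39, and that of Tgfa 18.8% ± 2.19 against 12.8% ± 0.435. Neither pair of ranges overlapped. Shares of a sum are bound together, so a lower share of Hbegf goes with higher shares of the others. The Areg levels per kilobase themselves overlapped between the groups. Btc and Epgn together added little, with 1.03% and 1.17% in 4T1-Sca1+ cells. The sum itself was 108 ± 8.17 for 4T1-Sca1+ against 110 ± 5.23 for 4T1-Sca1-, with overlapping ranges of 96.55 to 115 and 105 to 116. With the longest transcript as length the ranges were 131.35 to 152.29 and 151.7 to 163.72, which overlapped only narrowly. The ratio of Hbegf to Tgfa was 1.82 to 2.27 for 4T1-Sca1+ against 4.11 to 4.53 for 4T1-Sca1-. Shares and sums are given as values with no test.

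**Figure D3:**
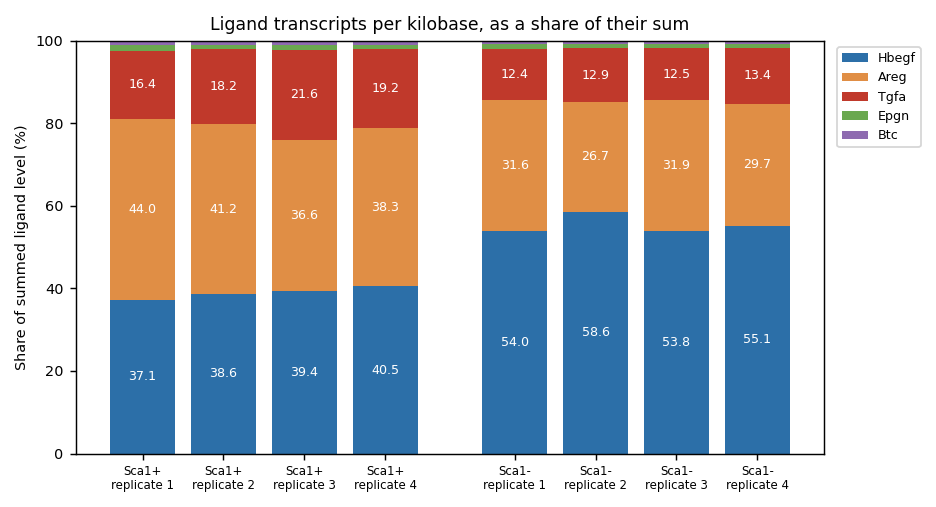
Each ligand gene as a share (%, y axis) of the summed ligand level per kilobase of exon in each library, with values printed for the 3 main ligands; Ereg was at or near 0 and is not drawn. Hbegf took 37.1% to 40.5% of the sum in 4T1-Sca1+ libraries against 53.8% to 58.6% in the others.

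Among the receptors, the level per kilobase of Erbb2 was highest, at 18.8 ± 0.953 for 4T1-Sca1+ and 17.4 ± 0.635 for 4T1-Sca1-. Erbb3 followed at 2.64 ± 0.341 and 2.30 ± 0.152, and Egfr was lowest at 0.585 ± 0.0533 and 0.838 ± 0.0371 (SD, n = 4). This order held in every library without overlap. The ratio of Erbb2 to Egfr was 32.3 ± 2.96 for 4T1-Sca1+ against 20.8 ± 1.59 for 4T1-Sca1-, and its ranges (29.7 to 36.5 and 18.8 to 22.5) did not overlap. The ratio of Erbb3 to Egfr was 4.54 and 2.75, whereas that of Erbb2 to Erbb3 overlapped between the groups.

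Errfi1, which encodes MIG6, a cytoplasmic inhibitor of EGFR family kinases, had the highest level of the 10 genes, above that of 96.2% of tested genes. Errfi1 (ENSMUSG00000028967, chromosome 4, 150853919 to 150868892, plus strand) had normalized counts of 4777, 4997, 4709.9 and 4686 in 4T1-Sca1+ replicates 1 to 4 and of 5329.9, 5176, 5331 and 5498 in 4T1-Sca1- replicates 1 to 4. The groups did not overlap, but the change was small: the log2 fold change was -0.14 ± 0.04 (SE), a fold of 0.907 (adjusted p 0.0074 by edgeR). The call was lost when libraries were scaled by their totals alone (-0.10, adjusted p 0.0504).

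Of the 9 members tested, 2 were called higher, where the background over all tested genes was 31.3%, and 3 lower, where it was 30.2%. The share of tested members called, 55.6%, was near the 61.5% of all tested genes, so the number of calls is no result about these genes. Groups did not overlap for 4 of the 9, against 54.7% of all tested genes. The median log2 fold change of the 9 was 0.19 and that of all tested genes 0.01. No member reached a log2 fold change of 1 in size, which with the same test was passed upward by 5.22% of tested genes and downward by 0.879%.

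**Figure D4:**
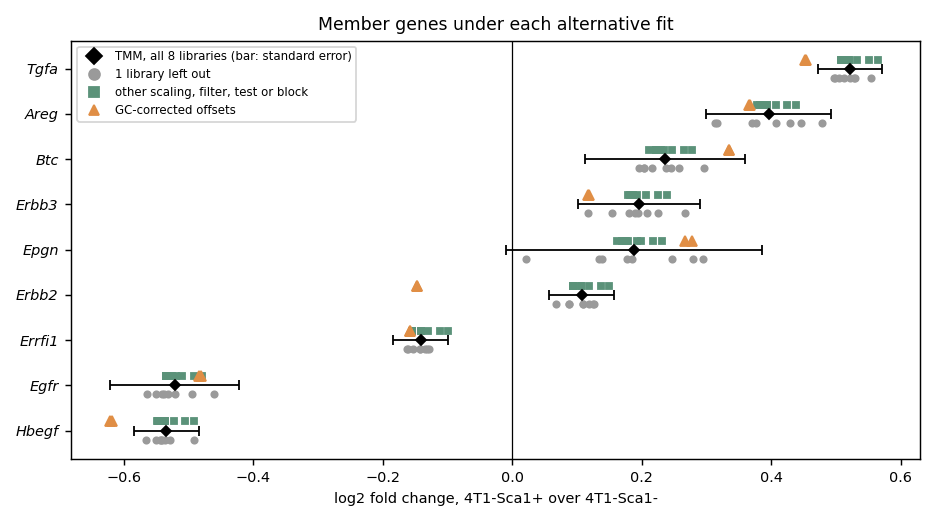
Log2 fold change (x axis, 4T1-Sca1+ over 4T1-Sca1-) of the 9 tested members under each fit: black diamonds with standard error for all 8 libraries with TMM scaling, grey points with 1 library left out, green squares for another scaling, filter, test or the replicate block, and orange triangles for GC-corrected offsets with and without the block. Tgfa and Areg stayed above 0 and Egfr, Hbegf and Errfi1 below 0 under all of these fits, while Erbb2 went from 0.11 to -0.15 with GC-corrected offsets.

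The wider pathway was described by 7 lists of 88 genes, of which 87 were counted and 82 tested. Of these, 27 were higher, 28 were lower and 27 were not called, so that 67.1% were called where the background was 61.5%. The median log2 fold change of the 82 was 0.03. With no set test, the lists are given by their counts and medians, and the named genes are taken from the extremes of each list.

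The other EGF-like ligands are the neuregulins and EGF. With the members included, 2 of 7 tested ligands were higher (background 31.3%) and 3 were lower (background 30.2%). Their median log2 fold change was 0.19. Summed with no scaling by length, the counted genes of this list stood at 398.2 to 443.9 CPM in 4T1-Sca1+ libraries against 457.4 to 479.9 in the others. Nrg2, which encodes a ligand of ERBB3 and ERBB4, was lower at 72.0 ± 17.4 normalized counts against 105 ± 16.4 (SD, n = 4; log2 fold change -0.53 ± 0.16 SE, adjusted p 0.00713 by edgeR, groups overlapping). With GC-corrected offsets its log2 fold change was -0.96. Nrg1, another such ligand gene, was lower by a small margin, at 351 ± 23.1 and 399.7 ± 4.91 normalized counts. Its call at a log2 fold change of -0.17 was lost with GC-corrected offsets, with library totals alone, with upper-quartile scaling and without 4T1-Sca1+ replicate 1. Egf was too low to be tested, Nrg4 had 3 counts or fewer in every library, and Nrg3 was not among the genes counted.

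Among 12 tested genes of ligand shedding and maturation, 1 was higher (background 31.3%), 4 were lower (background 30.2%) and 7 were not called. Their median log2 fold change was 0.01. Adam12, which encodes a metalloprotease known to release HB-EGF, had the lowest fold change in the 7 lists. Its normalized counts were 269, 298, 256 and 261 in 4T1-Sca1+ replicates 1 to 4 and 936, 908, 926 and 837 in 4T1-Sca1- replicates 1 to 4. The groups lay far apart, with a log2 fold change of -1.72 ± 0.06 (SE), a fold of 0.303 (adjusted p 4.12e-13 by edgeR). Rhbdl2, which encodes a rhomboid protease able to cut EGF family precursors, was lower, with a log2 fold change of -0.72 ± 0.07 (SE). Adam17 and Adam10, which encode the main sheddases of EGF family ligands, did not pass the test, with log2 fold changes of 0.07 ± 0.05 and 0.01 ± 0.07 (SE). Furin, a proprotein convertase gene, was higher by 0.35 ± 0.06 (SE), and 4T1-Sca1+ replicate 3 stood apart within its group. With GC-corrected offsets the log2 fold change of Furin was 0.13.

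Of 14 genes for receptor inhibitors and turnover, 3 were higher (background 31.3%), 5 were lower (background 30.2%) and 6 were not called. Their median log2 fold change was -0.03. Cblc, which encodes a ubiquitin ligase acting on EGFR, was lower at 455 ± 59.3 normalized counts against 760.4 ± 40.4, a log2 fold change of -0.73 ± 0.08 (SE). The log2 fold change of Cblc under GC-corrected offsets was -1.08. Its relative Cblb was higher by 0.22 ± 0.07 (SE). Socs5, a suppressor gene acting on EGFR turnover, was higher by 0.32 ± 0.06 (SE), while Socs4 of the same family was lower at -0.41 ± 0.07 (SE). Lrig1, which encodes a transmembrane inhibitor of the receptors, had a log2 fold change of -0.01 ± 0.04 (SE) and was not called.

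Of 16 genes for adaptors and direct effectors, 7 were higher (background 31.3%), 6 were lower (background 30.2%) and 3 were not called. Their median log2 fold change was 0.08. Shc1, which encodes an adaptor that links receptors to GRB2, was higher at 3189 ± 302 normalized counts against 1932 ± 56.6, a log2 fold change of 0.74 ± 0.06 (SE). Plcg1, the gene of phospholipase C gamma 1, was higher by 0.54 ± 0.05 (SE). The log2 fold changes under GC-corrected offsets were 0.58 for Shc1 and 0.36 for Plcg1. Pik3cb, which encodes the beta catalytic subunit of PI3K, was lower at 578 ± 63.0 normalized counts against 1052 ± 70.2, with a log2 fold change of -0.85 ± 0.07 (SE). Ptpn11, which encodes the phosphatase SHP2, was lower at -0.34 ± 0.04 (SE).

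In the RAS-ERK cascade 4 of 13 genes were higher (background 31.3%), 5 were lower (background 30.2%) and 4 were not called. Their median log2 fold change was -0.01. Mapk3, which encodes the kinase ERK1, was higher at 2259 ± 254 normalized counts against 1501 ± 127, a log2 fold change of 0.60 ± 0.07 (SE). Ksr1, which encodes a scaffold of the cascade, was higher by 0.75 ± 0.07 (SE). With GC-corrected offsets these log2 fold changes were 0.34 for Mapk3 and 0.50 for Ksr1, both still called.

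Of 17 ERK-induced targets and feedback genes, 10 were higher, where the background was 31.3%, 4 were lower, where it was 30.2%, and 3 were not called. The median log2 fold change of 0.32 was the highest of the 7 lists. Dusp4, which encodes a nuclear phosphatase of ERK, was higher at 2963 ± 237 normalized counts against 1447 ± 111, with a log2 fold change of 1.05 ± 0.06 (SE, adjusted p 1.42e-10 by edgeR). The transcription factor gene Etv4 was higher by 0.69 ± 0.06 (SE), which came to 0.39 with GC-corrected offsets. Dusp5, the gene of another nuclear ERK phosphatase, was lower at 331 ± 21.7 normalized counts against 629 ± 17.4, a log2 fold change of -0.92 ± 0.06 (SE). Ier3, an immediate early gene, was lower at -0.46 ± 0.05 (SE). The log2 fold changes under GC-corrected offsets were 0.83 for Dusp4, -1.15 for Dusp5 and -0.65 for Ier3. The list thus held members called in both directions, and Ier3 and Egr1 are also in the list of dissociation genes described next.

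**Figure D5:**
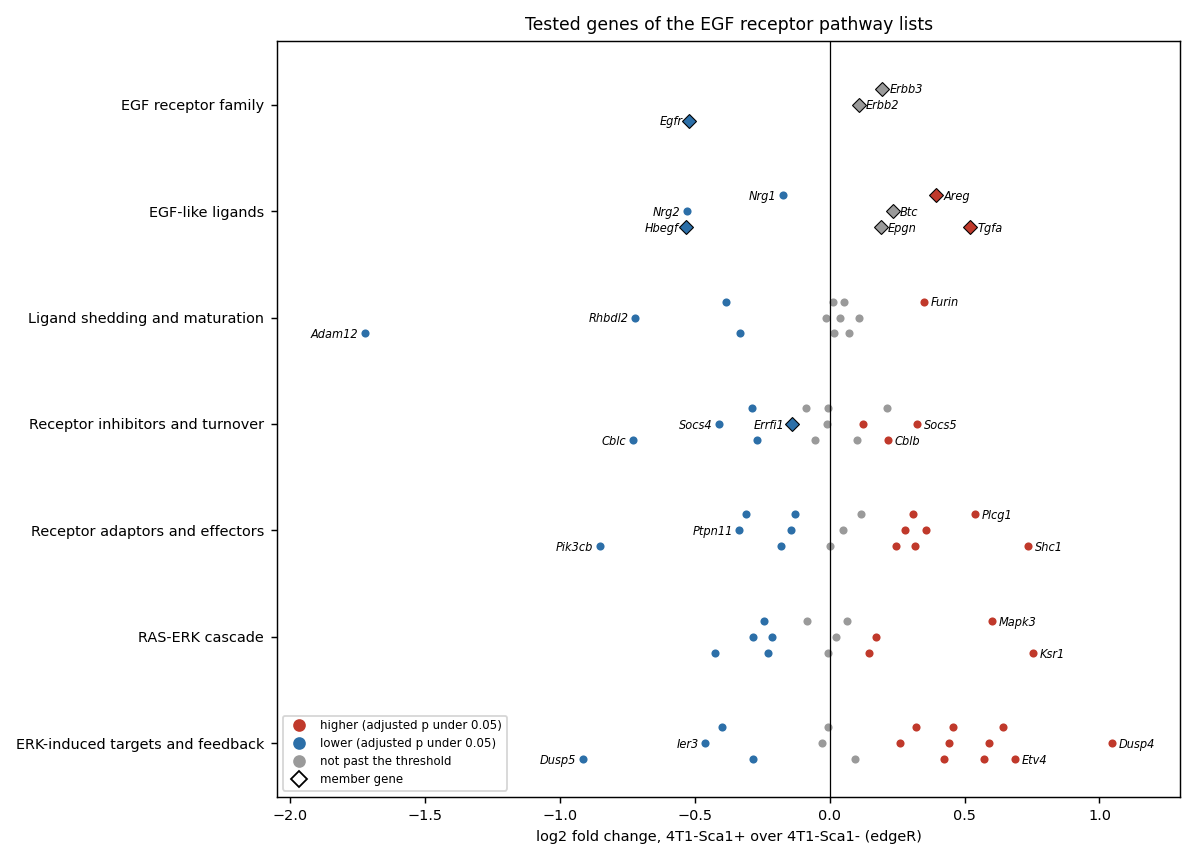
Log2 fold change (x axis, 4T1-Sca1+ over 4T1-Sca1-) of the 82 tested genes of the 7 pathway lists, 1 row per list with points offset vertically for legibility; diamonds are the receptors, ligands and Errfi1 described above, and names mark these and genes from the extremes of each list. Adam12 lay farthest left at -1.72 and Dusp4 farthest right at 1.05. Of 17 ERK-induced genes 10 were higher and 4 lower, where the shares over all tested genes were 31.3% and 30.2%.

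Genes used as markers of other cell types and of stress were called in both directions. Bulk RNA does not show which cells their transcripts came from. Of 17 tested genes of the dissociation and stress response, 7 were higher and 7 were lower, where the shares over all tested genes were 31.3% and 30.2%, and their summed level was 3437 to 3701 CPM in 4T1-Sca1+ libraries against 3763 to 4440 in the others. The called genes of this list ran from Atf3, at a log2 fold change of -2.42 ± 0.07 (SE), to Ier2, at 0.57 ± 0.09 (SE). Fos, which was not called, had one of -0.06 ± 0.08 (SE), and the median of the list was -0.06. Of 14 leukocyte markers, 10 were counted and 4 tested (Cd68, Csf1r, Cd74 and S100a8), all higher where 31.3% of all tested genes were. S100a8 had 164 raw counts against 28 and entered the test through the 4T1-Sca1+ libraries, so the filter favoured the direction of its call. The summed level of the list was 26.85 to 31.24 against 14.83 to 17.28 CPM. No library held more than 3 counts of the leukocyte markers Cd3e, S100a9 or Lyz2. Of 9 fibroblast markers, 7 were counted and 3 tested, of which 2 were higher against the same 31.3% (summed level 41.98 to 44.44 against 25.94 to 30.57 CPM), while Col3a1 and Lum were not among the genes counted. Of 7 endothelial markers 1 was tested (Tie1), and of 4 basal markers 1 (Krt14). Both were lower, as were 30.2% of all tested genes. Untested genes of these lists had few raw counts, given here as 4T1-Sca1+ against 4T1-Sca1-. The fibroblast gene Dcn had 49 against 4, Pdgfrb 27 against 1, Col1a2 19 against 18 and Fap 4 against 11. The leukocyte gene Ptprc had 10 against 2, Fcer1g 10 against 2 and Itgam 10 against 11. Of the endothelial genes Pecam1 had 21 against 4, Esam 24 against 32, Cdh5 3 against 7 and Tek 0 against 1. The basal gene Trp63 had 20 against 6, Acta2 11 against 0 and Krt5 3 against 0. The part of these genes' cells or of dissociation in the differences of the receptors and ligands was not tested.

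The tested genes whose pattern over the 8 libraries was most like that of Egfr, by Euclidean distance of centred log2 CPM, were Higd1a (distance 0.147, log2 fold change -0.55), 1110008L16Rik (distance 0.147, log2 fold change -0.43) and Trub1 (distance 0.160, log2 fold change -0.47). For Hbegf they were Metap2 (distance 0.0930, log2 fold change -0.50), Hspa9 (distance 0.0941, log2 fold change -0.55) and Rpusd4 (distance 0.104, log2 fold change -0.52).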

How the data were processed

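Total RNA of 8 libraries was prepared with an Illumina TruSeq kit, per the labels. The submitters' processing notes name cutadapt 1.16, STAR 2.5.3a and the build GRCm38, and the counting tool, annotation and use of strand are not given in the sources used here. The authors deposited raw counts of 16341 Ensembl genes and, for 15372 of them, normalized signal. That deposited signal equalled the counts divided by DESeq2 size factors, and 969 genes with 1 count in all were left out of it.

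Symbols and positions came from GENCODE M21 on GRCm38, which matched 16202 of the IDs and not the other 139. Counts were tested with edgeR 4.0.16 in R 4.3.3 (filterByExpr, 11717 genes tested and 4624 not, TMM scaling, quasi-likelihood test, two-sided, no covariate, Benjamini-Hochberg over all tested genes, adjusted p under 0.05). The test was also run on counts simulated from the means, dispersions and library sizes of these data. That simulation drew libraries independently and without a GC effect, so it does not cover links between libraries or GC content. Normalized counts are counts divided by size factors. Levels are TMM-scaled CPM per kilobase of merged exons. Motifs were searched in the 250 bases before RefSeq starts.

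The alternatives were DESeq2 size factors, library totals alone, upper-quartile scaling, a filter of 10 counts in every library or none, limma-voom (limma 3.58.1), DESeq2 1.42.0, GC-corrected offsets, the replicate number as a block with and without these, limma on the deposited signal (log2, after adding 1), stricter thresholds, the longest transcript as length and leaving out each library.

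The members and lists were chosen with earlier results of these data known. Named genes were the 10 members, the 2 highest and 2 lowest called genes of each list, the 3 nearest genes of Egfr and of the ligand with the most counts, and Ly6a, of which 2 in the RAS-ERK list are not reported here. Adam10, Adam17, Lrig1 and the stress and marker genes with values were named after these were seen. The labels do not say whether replicates were separate sorts, so p-values measure the spread between these libraries, which may be technical. Reads carry no molecular identifiers, so floors cover counting error only.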

Additional observations from a re-analysis of the deposited data

Results flagged for a closer look

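In 84 groups of 4 libraries, the highest or lowest value lay far from the other 3 by Dixon's criterion for 4 values in 10, where chance gives about 4.2. No normalized count of a receptor, ligand or Errfi1 was among them. In 4T1-Sca1+ replicate 3 the normalized counts concerned were those of Furin (5975, against 4809 to 4886 in the other libraries of its group), Cblc (543.6, against 416.1 to 433.2), Dusp4 (3314, against 2807 to 2887), Hspa9 (10290, against 11630 to 11890) and Rpusd4 (736.1, against 815.7 to 820.5). In 4T1-Sca1+ replicate 4 they were those of Plcg1 (2079, against 2204 to 2211) and Higd1a (320.3, against 359.2 to 361.9). In the 4T1-Sca1- group the values were 1341 for Socs5 in replicate 4 (against 1148 to 1175) and 267.2 for 1110008L16Rik in replicate 3 (against 250.5 to 253.1). The share of Epgn in the summed ligand level was 1.184% in 4T1-Sca1- replicate 1, against 0.9232% to 0.9585% in the other 3.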

How the results depend on the processing

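Hbegf, Tgfa, Egfr and Areg kept their direction and their call under every alternative but the demand for a log2 fold change of 1 or more in size, which took the called members from 2 higher and 3 lower to 0 and 0, and the called genes of the pathway lists from 27 higher and 28 lower to 1 and 1. With library totals alone, or with upper-quartile scaling, 4 members were called higher in place of 2, since Erbb2 and Erbb3 then passed. With GC-corrected offsets, alone or with the replicate block, Erbb2 was reversed (-0.15 in each), and over all tested genes 3103 were higher and 4734 lower (39.6% of calls higher), against 3668 and 3538 (50.9%). With the longest transcript as length, the share of Hbegf was 48.4% for 4T1-Sca1+ against 64.8% for 4T1-Sca1-, and that of Areg 29.8% against 20.96%. Of 776 values of 37 single genes under the alternatives, 728 kept direction and call, 38 lost the call, 8 gained it and 2 changed sign. Most of the lost calls came from the stricter thresholds, which left the fit as it was. The cause of the changes under other fits was not tested. Same-numbered libraries did not deviate together (correlations of 0.096, -0.15, -0.034 and -0.0011). The numbers were not used as a block in the main test, since the labels do not say what they mark. The replicate block gave 3605 genes higher and 3452 lower, left 2 members higher and 3 lower, and changed no call of the 37 genes. Depth limits Ereg, at 1 count, and Egfr, Epgn and Btc, which had the fewest counts among the tested members.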
